A study of Mus musculus with 2 samples.

Results

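Integrins and the proteins that tie them to the actin cytoskeleton were followed in mDE6 cells, a mouse line labelled as odontogenic epithelial cells, after 6 h with CHIR99021. The 41 genes are 25 integrin subunits, 2 collagen receptor tyrosine kinases, and 14 kinases, adaptors and actin linkers of the focal adhesion. They were chosen by name: every probe whose gene name on the array equals a listed gene was taken, without regard to its signal. This gave 97 of the 56605 distinct probes, for 41 of 37074 gene names, with 1 to 6 probes per gene and 10 genes on a single probe.

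The study looked for transcripts that change when β-catenin signaling is switched on in these cells, and its paper took candidates from those lower after CHIR99021. CHIR99021 inhibits the kinase GSK-3, which otherwise marks β-catenin for destruction. The control array held RNA of mDE6 cells given the vehicle DMSO for 6 h, and the treated array RNA of mDE6 cells given CHIR99021 for 6 h. There was 1 array per condition, so no spread between cultures could be measured and no difference has a replicate check. The sample labels give a dose of 5 mM, whereas the methods give 5 μM and call the control cells untreated. The methods name a human array, whereas the header of the files names a mouse design and the mouse build mm9.

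Integrins are pairs of an α and a β subunit that span the cell membrane and bind matrix proteins or other cells. Most α subunits pair only with Itgb1, while Itgav pairs with several β subunits, Itga6 also with Itgb4 in hemidesmosomes, and the leukocyte α subunits with Itgb2 or Itgb7. Inside the cell, talins and kindlins bind the β tail and switch the receptor on. A complex of Ilk, Lims1 (PINCH) and Parva then links it to actin, and the kinase Ptk2 (FAK) signals through paxillin (Pxn) and Bcar1 (p130Cas). In developing teeth, the epithelium rests on a laminin-rich basement membrane that these receptors hold.

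Each array carried 59305 spots besides its controls, of which 49.8% (control) and 48.3% (CHIR99021) gave a signal well above background and 0 were saturated. A ratio is the background-subtracted signal after CHIR99021 over that of the control, each first divided by the 75th percentile of its array (486.7 and 469.17). An error given with ± is the error model of the scanner software for the 2 spots, on the log2 scale, and covers neither culture nor hybridisation. Each member probe was printed once per array. Of the probes printed 10 times, 282 were well above background at every spot on both arrays. Their log2 ratio had a median SD of 0.031 between spots, which does not cover dimmer probes. As a check of the treatment, 8 of the 10 Wnt feedback genes with a tested probe were at least 1.5-fold higher at their brightest probe. These were Axin2, Lef1, Nkd1, Tcf7, Znrf3, Rnf43, Apcdd1 and Nkd2. Of them, Axin2 and Nkd1 were not well above background in the control and were tested only through the CHIR99021 array. Sp5 and Dkk1, also listed, were not well above background on either array. Lef1, for example, went from a signal of 239 to 690.

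The label of an epithelial line was set against marker genes. In the control, 3 of 7 epithelial markers passed the background limit, namely Trp63 (2306), Krt14 (48.5) and Krt18 (25.7), whereas Cdh1, Epcam, Krt5 and Krt8 did not. All 7 mesenchymal markers did, including Vim at 52302 and Col1a1 at 122887, and so did 4 of 5 leukocyte markers, including Ptprc, at 1709 on 1 of its 7 probes and not above background on the others. Summed over all probes of a list and before scaling, marker signal went from 2512 to 3184 for the epithelial list. It went from 677447 to 623189 for the mesenchymal list and from 3504 to 3604 for the leukocyte list. A single Trp63 probe (2306 to 2896) made up most of the epithelial sum, to which Krt5 added 5.51 and then 165. In RNA of a whole culture, fewer cells of a type and less RNA per cell cannot be told apart. The part of other cell types in the values below was not tested.

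In control cells, 33 of the 41 genes had at least 1 probe well above background. The 8 that did not were Itga2, Itga4, Itga8, Itgae, Itgax, Itgb6, Itgb8 and Fermt1, the last being the kindlin of epithelia. By probe, 53 of 97 (54.6%) passed, against 47.7% of all probes on the array. The share of genes passing in the control was not computed over all gene names, here or for the lists below. On at least 1 of the arrays, 36 of the 41 genes passed, as did 18838 of all 37074 gene names. Signals of different probes depend on their sequences and were not ranked as amounts of RNA. Of 68 member probes whose annotation carries a RefSeq mRNA accession, 51 (75%) were well above background, against 2 of the 29 without one (6.90%). The same split was not made over all probes of the array, so this contrast is not shown to be particular to the members.

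**Figure D1:**
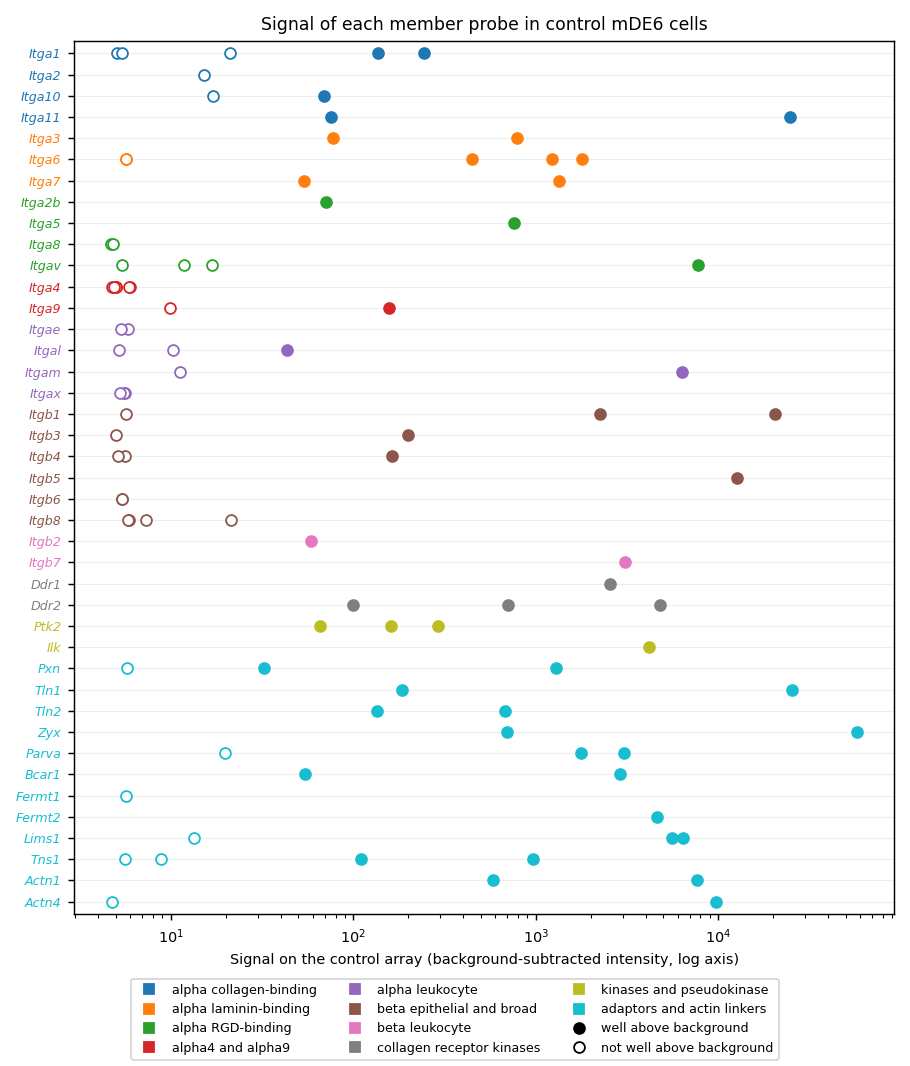
Signal of each of the 97 member probes on the control array (background-subtracted intensity, log axis), by gene and coloured by role; filled points were well above background and open points were not. 33 genes have at least 1 filled point, and 8 genes have open points alone.

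The detected subunits included both partners of many known receptors. Of 23 textbook α and β pairs, a list written after the values had been seen, 15 had both subunits detected in control cells. Itgb1 was measured at 2 probes, and 9 of its 12 listed partners were above background. Itgav, Itgb3 and Itgb5, the subunits of the classical vitronectin receptors, were all measured, as was Itgb1, a further partner of Itgav, whereas its partners Itgb6 and Itgb8 were not. Itga6 and Itgb4, the hemidesmosome receptor, were both measured, as were Itga2b and Itgb3, the platelet receptor. For leukocyte receptors, Itgal, Itgam and Itgb2 were detected, while Itgax, Itgae and Itga4 were not. Levels of RNA do not tell whether these pairs formed.

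The probes on which the main differences rest are given here as the files hold them, each with its position in mm9. They are shown because the values of Ddr1, Itga3, Bcar1, Itgae and Itgb6 given further on each come from single probes, and those of Itga3 and Bcar1 differ between their probes. The Ddr1 probe lies at chr17:35818525-35818584 on the minus strand. The dimmer probes of Itga3 (chr11:94915485-94917062) and Bcar1 (chr8:114239259-114239533) and those of Itgae (chr11:72945236-72946221) and Itgb6 (chr2:60438632-60443247) span a splice junction. The brighter probes of Itga3 (chr11:94905987-94906046) and Bcar1 (chr8:114234418-114234477) are unbroken. Capitals mark the letters AATAAA, the usual polyadenylation signal.
Ddr1: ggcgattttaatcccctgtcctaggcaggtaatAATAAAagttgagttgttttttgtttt
Itga3 brighter probe: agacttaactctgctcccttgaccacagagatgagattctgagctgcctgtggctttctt
Itga3 dimmer probe: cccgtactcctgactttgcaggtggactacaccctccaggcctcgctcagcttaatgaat
Bcar1 brighter probe: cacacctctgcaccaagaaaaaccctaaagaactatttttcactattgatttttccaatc
Bcar1 dimmer probe: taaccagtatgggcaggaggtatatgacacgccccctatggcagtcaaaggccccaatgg
Itgae: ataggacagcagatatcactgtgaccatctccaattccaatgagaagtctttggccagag
Itgb6: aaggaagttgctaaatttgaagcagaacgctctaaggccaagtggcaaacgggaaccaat

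Among these, the Ddr1 probe alone holds a polyadenylation signal (AATAAA or ATTAAA on the probe's strand). In the annotation of GRCm38.p6, Itgae overlaps Haspin, Itgb6 overlaps Gm33436, Bcar1 overlaps Gm51589, and Ddr1 overlaps Gm4577 and LOC115488883, while Itga3 overlaps no other gene. Such a polyadenylation signal stood in 11 of the 97 member probes (11.3%) and in 13.4% of all probes, and a match is a description of letters only.

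Dark stands below for a probe not well above background. A probe was tested for change if it was well above background on at least 1 array, which held for 57 member probes of 36 genes. Of these, 53 were measured on both arrays and 4 (7.02%) on the CHIR99021 array only, as were 3.78% of all tested probes. The genes with no tested probe were Itga2, Itga8, Itgax, Itgb8 and Fermt1, and their change is not known. A ratio of at most 0.66 was found at 4 member probes (7.02%), where 9.68% of all tested probes passed, and a ratio of at least 1.5 at 8 (14.0%), where 8.24% passed. Among probes measured on both arrays, the members had 4 lower and 4 higher (7.55% each), where 5.61% and 5.49% of all such probes passed. These shares lie near the background of the array, and the counts alone set the members apart in neither direction.

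The median log2 ratio was 0.00 for the members and 0.026 for all tested probes. A ratio under 1 was found at 28 of 57 member probes (49.1%) and at 46.7% of all. At the probe with the highest signal of each gene, 3 of 36 member genes were lower and 6 higher, where 9.67% and 8.05% of all genes were. A stricter rule added a Z-score beyond 2 against the 500 probes nearest in signal. It kept Ddr1 and Itga3 as lower, where it kept 2.72% of all tested probes, and Itgae, Itgal and Itgb6 as higher, where it kept 2.39%. The probes of Itgae and Itgb6 were dark in the control and were tested only through the CHIR99021 array. Among probes measured on both arrays the stricter rule kept 1 member as higher, where it kept 2.13% of all such probes.

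**Figure D2:**
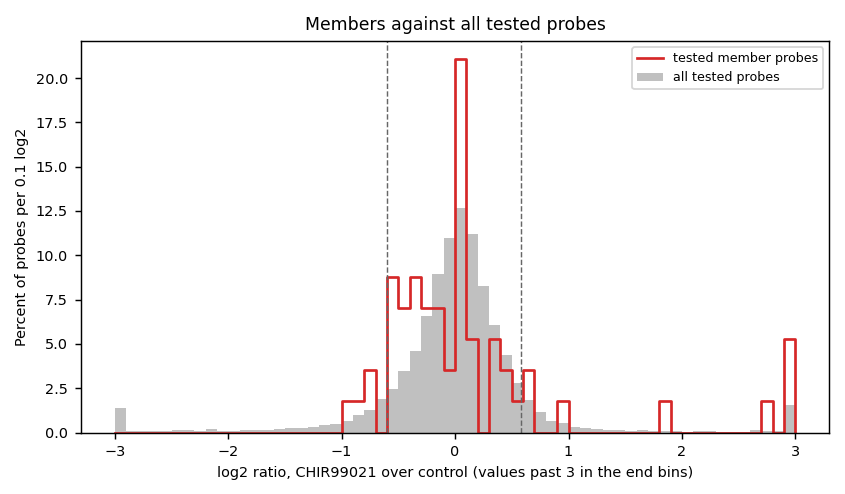
Share of probes in bins of 0.1 of the log2 ratio of CHIR99021 over control, for all 28067 tested probes (grey bars) and the 57 tested member probes (red line), with the ratios 0.66 and 1.5 dashed and values past 3 drawn in the end bins. The members center near 0, as all probes do, and probes measured on the CHIR99021 array only are drawn at the ratio as computed.

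**Figure D3:**
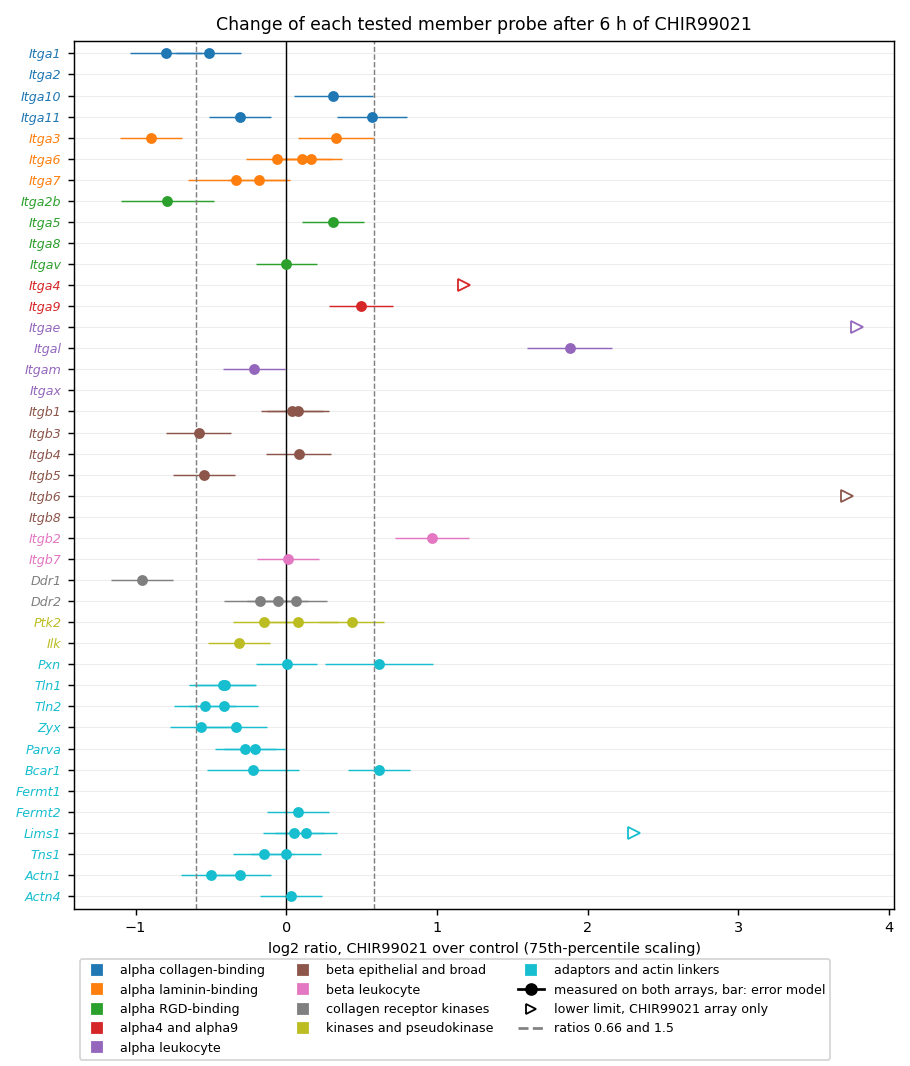
log2 ratio of CHIR99021 over control for each tested member probe, by gene and role; bars are the error model of the scanner software, and open triangles are lower limits for probes above background on the CHIR99021 array only. Ddr1, Itga3, Itga1 and Itga2b lie left of the ratio 0.66, and the limits of Itgae and Itgb6 lie farthest right.

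Among the collagen-binding α subunits, both tested probes of Itga1 were lower after CHIR99021. Its signal went from 136 to 75.7 at one probe, a ratio of 0.575 (log2 -0.80 ± 0.24), and from 244 to 165 at the other, a ratio of 0.700. The first of these passed 0.66 and the second did not, and with normexp background correction, which raises low signals by an offset, the first was 0.711 and did not pass either. Itga11, a collagen receptor of mesenchymal cells, gave opposite values at its probes. It went from 24914 to 19420 at the brighter one (0.809) and from 76.0 to 109 at the dimmer one (1.48), so neither passed, although the dimmer one reached 1.52 under another scaling. Itga10, known from cartilage, went from 68.8 to 82.3 (1.24). The only probe of Itga2 did not pass the background limit on either array.

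The laminin-binding subunits are those that hold epithelia to the basement membrane. Itga3 went from 788 to 408 at its brighter probe, a ratio of 0.537 (log2 -0.90 ± 0.21, Z -2.33). At its dimmer, junction-spanning probe it went from 77.9 to 94.4, a ratio of 1.26 (log2 0.33 ± 0.25). The probes of Itga3 thus differed 2.34-fold in ratio, or 1.23 in log2, which is larger than either error, and they lie on different stretches of the gene. Itga6 stayed near 1 at its 3 tested probes, with ratios of 1.12, 1.07 and 0.959. Itga7, the laminin receptor of muscle, went from 1350 to 1148 (0.882) and from 53.9 to 41.3 (0.795).

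Of the subunits that recognize the RGD sequence of fibronectin and vitronectin, Itgav went from 7743 to 7465, a ratio of 1.00. Itga5, the fibronectin receptor subunit, went from 765 to 915 (1.24, log2 0.31 ± 0.20). Itga2b, the subunit of the platelet fibrinogen receptor, went from 71.0 to 39.6, a ratio of 0.579 (log2 -0.79 ± 0.31), at a probe that is dim on both arrays, and with normexp its ratio was 0.768, not past the limit. Of 3 platelet markers, Gp9 was dark on both arrays, Pf4 went from 35.6 to 13.8, at least 1.41-fold lower, and Gp1bb went from 48.4 to 57.3 (1.23). The summed signal of the platelet markers, before scaling, went from 94.8 to 82.9. Itga9, a receptor for tenascin and VCAM1, went from 156 to 213 (1.41).

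Itga4, which pairs with Itgb1 or Itgb7 on leukocytes and neural crest, was read by 6 probes. Of these, 5 were dark on both arrays. The sixth probe went from 5.04, not well above background, to 41.0, at least 2.26-fold higher, and with normexp its ratio as computed was 1.75. The pixels of its CHIR99021 spot were uneven, with a ratio of pixel SD to mean of 0.272 against a limit of 0.261.

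Among the integrin subunits, the highest ratios as computed were at probes of Itgae, Itgb6, Itga4 and Itgal. All but that of Itgal rest on a control signal not well above background. Itgae, the subunit of intraepithelial lymphocytes that binds E-cadherin, went from 5.34, not well above background, to 251 at one probe, at least 13.8-fold higher. Its other probe stayed at 5.82 and 6.45, dark on both arrays. Itgal, the α subunit of LFA-1, went from 43.6 to 155, a ratio of 3.68 (log2 1.88 ± 0.28, Z 2.61). The spot of Itgal on the CHIR99021 array was uneven, and its other 2 probes were dark on both arrays. The high reading of each gene thus stood at 1 of its probes only. With normexp the ratio as computed was 4.84 for Itgae and 2.04 for Itgal.

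Itgam (CD11b), the α subunit of the complement receptor of myeloid cells, went from 6351 to 5274, a ratio of 0.862. Its other probe read 11.2 and 13.4, not well above background. The bright Itgam probe, at chr7:135261755-135261814 on the plus strand, is shown because it opens with a run of the dinucleotide CA, in capitals.
Itgam: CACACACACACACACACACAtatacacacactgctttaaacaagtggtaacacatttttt
Of the 64 probes on the array with CA repeated at least 6 times in a row, 87.5% were detected in control cells, against 47.7% of all probes. Whether the repeat adds to the Itgam signal was not tested.

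Itgb1, the common β subunit, stayed near a ratio of 1. Its signals were 20626 and 20394 at one probe (1.03) and 2241 and 2279 at the other (1.06). Itgb5 went from 12670 to 8357, a ratio of 0.684 (log2 -0.55 ± 0.20, Z -2.33), just outside 0.66. Itgb3 went from 200 to 129, a ratio of 0.669, also just outside. Itgb4 went from 163 to 166 (1.06). Itgb5 and Itgb3, partners of Itgav, thus had ratios close to each other, and both passed 0.66 without scaling. Itgb1, a further partner of Itgav, stayed near 1. Over the scalings tried, the lowest ratio was 0.638 for Itgb5 and 0.645 for Itgb3.

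Itgb6, the epithelial partner of Itgav that activates TGF-β, went from 5.40, not well above background, to 239, at least 13.2-fold higher. Its CHIR99021 spot was uneven (pixel SD over mean 0.386), and its other probe read 5.39 and 6.04, not well above background. With normexp the ratio of Itgb6 was 4.70. Of the epithelial markers, Krt5 was at least 9.11-fold higher at its only probe (row 379), while Krt14 had a ratio of 1.17 and the brightest Trp63 probe 1.30 (1 other Trp63 probe passed 0.66 and was dark after CHIR99021), Krt18 went from 25.7 to 20.4, dark after CHIR99021, and Cdh1, Epcam and Krt8 were dark on both arrays. Itgb8 was dark on both arrays at all of its 4 probes. The leukocyte β subunit Itgb2 went from 58.5 to 110, a ratio of 1.95 (log2 0.97 ± 0.25, Z 1.30), and 1.46 with normexp. Itgb7 went from 3094 to 3008, a ratio of 1.01.

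Taken by number, the 28 tested probes of integrin subunits held 3 lower and 5 higher, with a median log2 ratio of 0.057. The 29 tested probes of the other members held 1 lower and 3 higher, with a median of -0.15. Over all tested probes, 9.68% were lower and 8.24% higher, with a median of 0.026, and the subsets were not told apart by any test.

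Ddr1 and Ddr2 are receptor tyrosine kinases that bind collagen without integrins, Ddr1 mainly in epithelia and Ddr2 in mesenchyme. Ddr1 had the lowest ratio among the tested member probes. Its signal went from 2541 to 1261, a ratio of 0.515 (log2 -0.96 ± 0.20, Z -3.09), and over the alternative settings the ratio ran from 0.496 to 0.526. Ddr1 is read by 1 probe, so no second probe stands beside it. Ddr2 stayed near 1 at its 3 probes, going from 4801 to 4449 (0.961), from 709 to 716 (1.05) and from 99.5 to 85.0 (0.886).

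The kinases at the adhesion site stayed within the limits. Ptk2 gave ratios of 0.903, 1.35 and 1.06 at its 3 probes, with signals of 292 to 255, 162 to 211 and 65.7 to 67.0. Ilk, a pseudokinase that scaffolds the link to actin, went from 4167 to 3230 (0.804).

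Adaptors and actin linkers had 0 tested probes past 0.66 and 3 past 1.5, and 12 of 21 (57.1%) were under 1, with a median log2 ratio of -0.21. Over all tested probes, 9.68% were past 0.66, 8.24% past 1.5 and 46.7% under 1, so that 0 and 3 of 21 lie near the background. Bcar1, a docking protein phosphorylated downstream of Ptk2, went from 2911 to 4298 at its brighter probe, a ratio of 1.53 (log2 0.61 ± 0.20, Z 1.76). At its dimmer probe it went from 54.6 to 45.1 (0.857, log2 -0.22 ± 0.31). Without scaling, the brighter ratio was 1.48, and with quantile normalization 1.47, both below the limit. Pxn passed 1.5 only at a dim probe, from 32.5 to 48.0 (1.53, and below the limit at 1.48 without scaling and 1.19 with normexp), while its bright probe went from 1296 to 1252 (1.00). Lims1 gave 1.09 and 1.03 at its bright probes (6442 to 6796 and 5618 to 5603). The remaining Lims1 probe went from 13.5, not well above background, to 89.7, at least 4.95-fold higher (1.86 with normexp).

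The talins, zyxin, α-actinin 1 and α-parvin each read below 1 at every tested probe. Tln1, the main talin of non-muscle cells, went from 25528 to 18532 (0.753) and from 185 to 133 (0.746). Tln2 went from 681 to 451 (0.687) and from 136 to 98.2 (0.750). Zyx, recruited to adhesions under tension, went from 57763 to 44172 (0.793, Z -2.41) and from 697 to 453 (0.674). These 4 genes and Parva were picked out after their values had been seen, and none passed 0.66, although the dimmer Zyx probe reached 0.650 without scaling.

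The actin crosslinker Actn1 went from 7679 to 5248 (0.709) and from 583 to 454 (0.809), and Parva, which binds Ilk and actin, from 3046 to 2434 (0.829) and from 1761 to 1468 (0.865). Actn4, a close relative of Actn1, stood at 9706 and 9567 (1.02). Fermt2, the kindlin of mesenchymal cells, went from 4621 to 4697 (1.05), and Tns1, a tensin that binds integrin tails, from 962 to 836 (0.901) and from 110 to 106 (1.00). Under other scalings Actn4 fell on the other side of 1, and so did Itgav, Itgb7 and 1 probe each of Itgb1, Lims1, Pxn and Tns1.

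**Figure D4:**
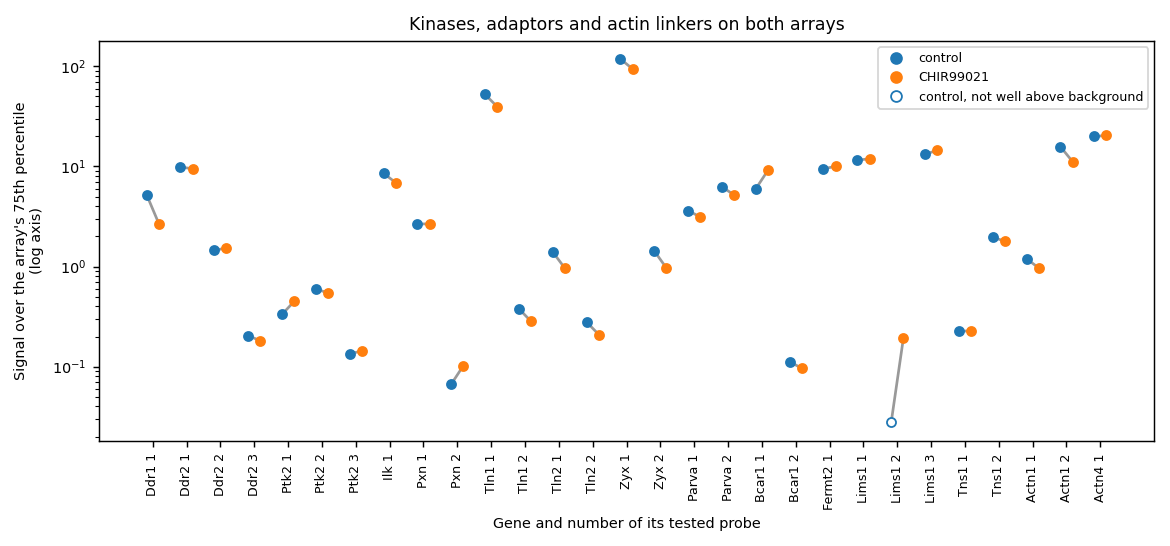
Signal of the tested probes of the kinases, adaptors and actin linkers, divided by the 75th percentile of its array (log axis), for control and CHIR99021; open points were not well above background. Both probes of Tln1, Tln2, Zyx, Parva and Actn1 slope down, and Ddr1 goes from 2541 to 1261 in signal before scaling.

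Where 17 genes had several tested probes, the probes of 10 lay on 1 side of 1 and those of 7 on both. The largest gaps among measured probes were those of Itga3 (2.34-fold), Itga11 (1.84-fold) and Bcar1 (1.79-fold). Just outside the limits were Itgb3 (0.669), Zyx (0.674) and Itgb5 (0.684) on the lower side and Itga11 (1.48) and Itga9 (1.41) on the higher side.

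Position on the array moved with the called probes. The arrays have 384 rows, and 92.9% of all probes changed over 4-fold lay in the later rows (above 192), which hold 51.6% of tested probes. Among the members, the later rows held 4 lower (13.3%) and 7 higher (23.3%) of 30 tested probes, where 11.9% and 10.8% of all probes in those rows passed. The earlier rows held 0 lower and 1 higher (3.70%, Bcar1) of 27, where 7.34% and 5.55% of all probes passed. All 4 members past 4-fold as computed, Itgae, Itgb6, Itga4 and Lims1, lay in the later rows. Both arrays lay side by side on 1 slide, so array and condition cannot be told apart, and the part of position in these values was not tested. In addition, 7 of the 12 called probes had signals under 200 on both arrays.

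**Figure D5:**
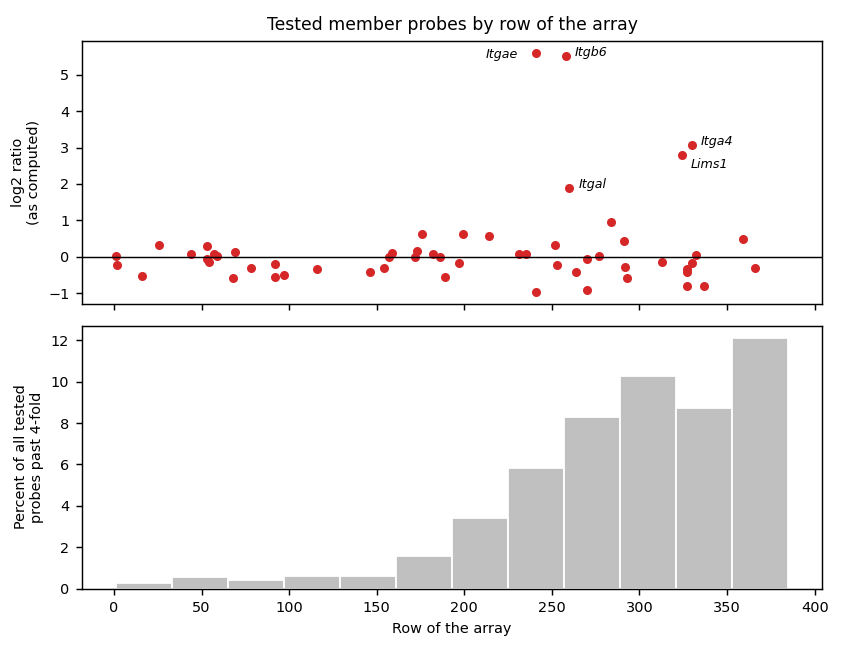
Upper panel, log2 ratio as computed of each tested member probe against the row of its spot; lower panel, percent of all tested probes that changed over 4-fold in blocks of rows. The members with the highest ratios sit past row 192, where the share of large changes over all probes rises from 0.248% in the first block to 12.1% in the last.

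Other genes of the adhesion were read from lists chosen with results of these data known. Of 43 further focal adhesion and hemidesmosome genes on the array, 39 were detected in control cells. Their 72 tested probes held 5 lower (6.94%) and 3 higher (4.17%), where 9.68% and 8.24% of all tested probes passed, with a median log2 ratio of -0.083. At the brightest probe of each gene, Lims2, the second PINCH protein, went from 558 to 341 (0.633), and Nedd9, a relative of Bcar1, from 369 to 231 (0.651). Crk, an adaptor that binds Bcar1 and Pxn, went from 61.2 to 91.0 (1.54), and Elmo1 from 38.3 to 20.6, at least 1.52-fold lower. Enah, Tgfb1i1 and Sharpin passed a limit at 1 of their dimmer probes only, that of Sharpin being dark after CHIR99021.

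Of 34 genes for integrin ligands, 24 were detected in control cells, and 51 tested probes held 6 lower (11.8%) and 3 higher (5.88%), near the 9.68% and 8.24% of all tested probes, with a median log2 ratio of -0.11. Thbs1, a matrix glycoprotein, was lower at both its probes and went from 10004 to 5101 at the brighter one (0.529). Col3a1, Lama1, Lamb1 and Lamc1 were lower at 1 of their dimmer probes only, each of them dark after CHIR99021. Tnc and Nid1 were higher at 1 of their dimmer probes only, that of Nid1 being dark in the control. Fn1, the ligand of Itga5, went from 122012 to 114519 (0.974) and was chosen after its values were seen. Lamb3, a chain of the laminin that binds Itga3 and Itga6, went from 25.1, not well above background, to 40.6, at least 1.67-fold higher.

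As a sequence feature, the promoters of the members were searched for the core letters bound by TCF and LEF factors, CTTTGAT or CTTTGTT on either strand. RefSeq windows (GRCm38.p6, 250 bases before to 50 after the start) were at hand for 30 of the 41 genes, with 39 promoters. The letters stood in 1 of 39 (2.56%), against 9.33% of all 32851 promoters of this length. That promoter was 1 of 4 of Ddr1, which had the lowest ratio among the tested member probes, with the match 68 bases before the start. Its stretch at chr17:35704174-35704233 on the minus strand (GRCm38.p6) is shown with the match in capitals.
Ddr1 promoter: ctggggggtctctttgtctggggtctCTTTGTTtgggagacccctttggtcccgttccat
A match does not make a site, and its absence says nothing of the factor.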

How the data were processed

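The authors deposited, per array, the background-subtracted intensity of each spot from Agilent Feature Extraction (10.7.1.1 per the file headers, 9.5.1.1 in the submitters' processing notes), with no normalization between arrays. They also deposited a table of normalized intensity; both columns have a median of 20.4 on a linear scale, and their sorted values are equal at 98.5% of positions, as after quantile normalization, though the method is not given in the sources used here.

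Spots of control type and outlier flags were left out and intensity was divided by each array's 75th percentile (Python 3.11.15, numpy 2.4.6, pandas 2.3.3, matplotlib 3.10.9). A probe was tested if either array gave it a signal well above background. Where 1 array alone measured a probe, the fold is a lower limit against the higher of the probe's own signal and the lowest signal that passed this limit (18.8 for the control and 24.3 for CHIR99021, before scaling). The small number of arrays limits precision: with 1 per condition there was no statistical test. The methods print a joint rule for lower genes (ratio up to 0.66, Z-score up to 2.0) and do not define the Z-score. Here the main calls used the ratio alone, with 1.5 as the mirrored limit, and a stricter rule added a Z-score of at most -2 or at least 2 against the 500 probes nearest in signal. Uneven spots had a pixel SD over mean above the 99th percentile of bright spots in the earlier rows. Normexp used limma 3.58.1 in R 4.3.3 with an offset of 50. The calculations were tested on simulated data.

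Values are given in full for members past a limit and members measured on 1 array only. They are also given for the 3 members with the brightest probe in each role group. Of other lists, genes past a limit are named, some of them with values. Not named above were Twist1 (1.55) and Notum, which passed 1.5 at 1 of its 2 probes. Some marker genes were added after their values were seen. The members and lists were chosen with earlier results of these data known. The alternatives were other scalings, normexp, the authors' table, other filters, a floor on low signals, another Z-score, the mean over a gene's probes, and leaving out uneven spots or the later rows. A further epithelial marker gene is not reported here.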

Additional observations from a re-analysis of the deposited data

How the results depend on the processing

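No paired analysis was possible because there is 1 control array and 1 treated array. In total 13 alternatives were tried. No member probe past a limit turned its direction in the settings that gave it a ratio, which were 8 to 11 per probe. The median log2 ratio of the member probes, 0.00, was -0.060 with probes measured on both arrays (all probes 0.038), -0.064 with the authors' table and with quantile normalization (all 0.00089), -0.053 without scaling (all -0.027), -0.052 with the percentile over probes above background on both arrays (all -0.026), -0.037 without uneven spots (all 0.049) and 0.17 without a filter on dim probes (all 0.18). Probes lower, 4, became 7 without scaling (12.3%, all tested probes 10.8%), 2 with normexp (3.51%, all 4.21%) and 0 in the earlier rows alone (all 7.21%), and those also past the Z-score, 2, became 0 there (all 2.59%). Probes higher, 8, became 4 with probes measured on both arrays (7.55%, all 5.49%), 14 of 97 without the filter (14.4%, all 8.91%) and 1 in the earlier rows (3.70%, all 5.77%). Those also past the Z-score, 3, became 1 with probes measured on both arrays (all 2.13%), 0 in the earlier rows (all 1.91%) and 6 with median and MAD (all 4.57%, against 2.39%). Genes lower, 3 of 36, became 5 without scaling (all genes 10.8%) and 0 of 23 in the earlier rows (all 7.13%). Genes higher, 6 of 36, became 3 of 33 with probes measured on both arrays (all 5.06%), 3 of 33 without uneven spots (all 6.43%) and 1 of 23 in the earlier rows (all 5.39%). In the earlier rows alone 27 member probes were left to test. There the scaling was redone (the brighter Bcar1 probe 1.54, against 1.53), so shares over all probes differ from those given by row above. With normexp the ratio as computed moved most where the control was not well above background: Itgae went from 48.7 to 4.84, Itgb6 from 45.9 to 4.70 and Itga4 from 8.44 to 1.75. Itga1 reached 0.711, Itga2b 0.768, Itgb2 1.46 and Pxn 1.19, none past a limit, whereas Itga3 ran from 0.517 to 0.568 over the settings. Other causes of these shifts were not tested. Signal over background limits the rest: 40 of 97 member probes could not be tested.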
